A study of Neurospora crassa with 4 samples.

Results

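The genes described here encode the calcium channels, calcium pumps and calcium/proton exchanger of *Neurospora crassa*. They were listed by locus number, as 9 loci, by a rule that uses no expression value. Earlier results of these data were known when the list was made, so the choice was not blind to them. They are *cch-1* (NCU02762), *mid-1* (NCU06703), *fig-1* (NCU02219), *yvc-1* (NCU07605), *nca-1* (NCU03305), *nca-2* (NCU04736), *nca-3* (NCU05154), *pmr-1* (NCU03292) and *cax* (NCU07075). Of these, 8 have a row among the 9691 rows of the deposited expression tables, and NCU07605 was not analysed here. An expression of at least 1 FPKM (fragments per kilobase of transcript, scaled to the mapped fragments of the library) in any library was reached by 7 of the 8, all but *nca-3*, and by 7896 rows in all. The deposited descriptions name a calcium channel subunit for *cch-1* and *mid-1*, a calcium-transporting ATPase for *nca-1*, *nca-2*, *nca-3* and *pmr-1* and a calcium/proton exchanger for *cax*, whereas *fig-1* is described only as a hypothetical protein.

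Messenger RNA was sequenced from 4 cultures of *N. crassa*, 1 for each combination of strain and treatment. The strains were the wild type and Δ*czt-1*, in which the gene of the zinc cluster transcription factor CZT-1 is deleted. Conidia were germinated for 6 h at 26 °C in minimal medium under constant light and then received either 20 μM staurosporine, a protein kinase inhibitor that induces cell death in this fungus, or its solvent DMSO for 1 h. The design asks how the response to staurosporine differs when CZT-1 is missing. The Δ*czt-1* libraries come from 1 deletion strain of a stock center, so the deletion and any other difference of that strain cannot be told apart.

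With 1 library for each condition there is no replicate error, no difference has a replicate check, and no test was run. Differences are given on the log2(FPKM + 1) scale, on which the change of a gene with few FPKM comes out too small, and a gene is counted as higher or lower when it differs at least 2-fold on that scale. This is a rule of size alone. As the check of the labels, *czt-1* (NCU09974) had 19.7 FPKM in the wild type with DMSO and 384 FPKM with staurosporine, against 2.26 and 1.54 FPKM in Δ*czt-1*. Read numbers per library were neither stated nor recoverable from the values, which leaves the depth of sequencing unknown. The FPKM of all rows summed to 1072129 and 877439 in the DMSO libraries of the wild type and Δ*czt-1*, and to 570298 and 550288 in the staurosporine libraries. The median of the 7896 genes was between 14.0 and 15.3 FPKM in all 4 libraries.

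Fungal cells keep free calcium in the cytosol far below its level outside the cell and in the vacuole, so that a brief opening of channels acts as a signal. In *N. crassa*, CCH-1 and MID-1 are the subunits of a high-affinity calcium uptake system of the plasma membrane, and FIG-1 belongs to a low-affinity uptake system that is known from the mating of budding yeast. YVC-1 is the relative of a yeast channel that releases calcium from the vacuole. After a signal, calcium is removed from the cytosol by P-type ATPases and by exchangers. NCA-1 is related to the pumps of the endoplasmic reticulum, NCA-2 and NCA-3 to the pumps of animal plasma membranes, PMR-1 to the calcium and manganese pump of the Golgi, and CAX is a calcium/proton exchanger of the vacuole.

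In wild-type cells, the genes for calcium removal other than *nca-3*, and *cch-1*, had a higher expression with staurosporine than with DMSO, while the other channel genes differed little. The *nca-2*, *cax*, *nca-1*, *cch-1* and *pmr-1* genes were each at least 2-fold higher, by 1.91, 1.55, 1.35, 1.14 and 1.08 on the log2 scale. Of all 7896 genes, 12.8% were 2-fold higher. In Δ*czt-1* cells, none of the 7 genes differed 2-fold between the treatments, against 37.7% of all genes. The same 5 genes lay between −0.68 and 0.20 as deposited. When all libraries were scaled to an equal FPKM sum, the values of *nca-2*, *cax* and *pmr-1* in Δ*czt-1* turned positive, at 0.07, 0.09 and 0.61. Of the staurosporine libraries, that of Δ*czt-1* had the lower value for all 5 as deposited, and for 4049 of all 7896 genes. The gap was widest for *nca-2*, at 117 FPKM in the wild type and 28.5 FPKM in Δ*czt-1*. For *nca-1* (−0.99) and *pmr-1* (−0.76) it was under the 2-fold rule on the log2 scale.

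**Figure D1:**
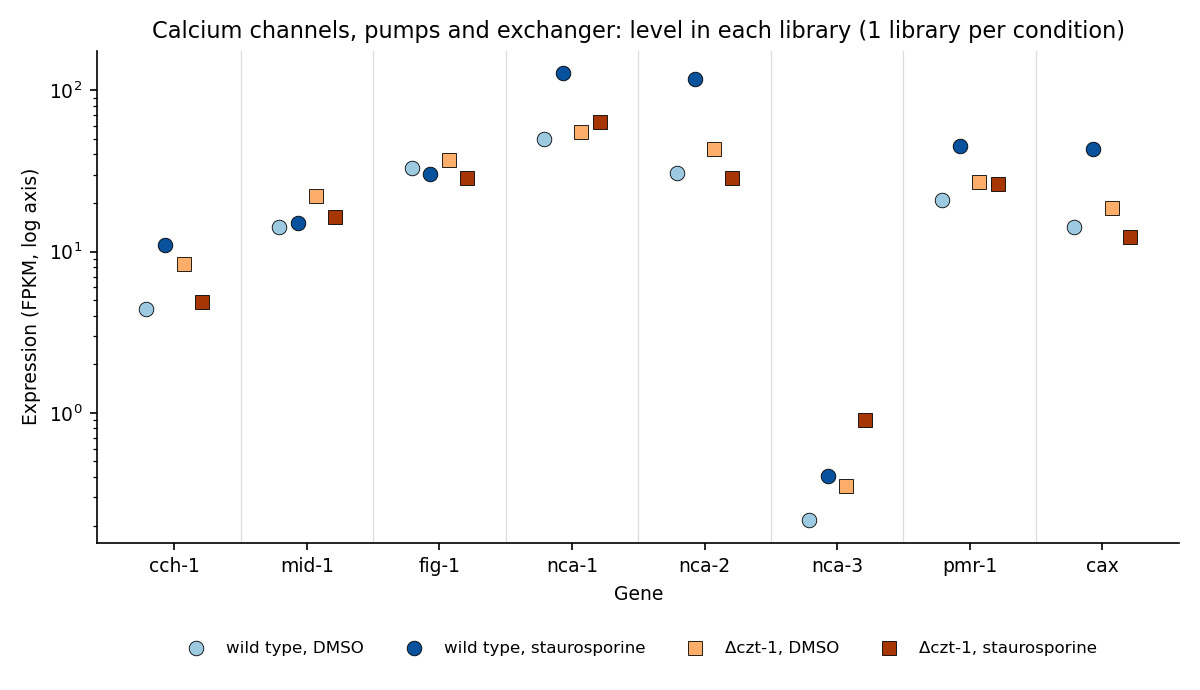
Expression of the 8 calcium transport genes with a deposited row, in FPKM on a log axis, with 1 point for each library (circles, wild type; squares, Δczt-1; lighter, DMSO; darker, staurosporine) and no error bars because there was 1 library per condition. The wild-type staurosporine library is the highest of the 4 for cch-1, nca-1, nca-2, pmr-1 and cax, and nca-3 is below 1 FPKM in all 4.

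Among the channel genes, *cch-1* encodes the pore-forming subunit of the high-affinity system. Its expression was 4.42 FPKM in the wild type with DMSO, 11.0 FPKM in the wild type with staurosporine, 8.36 FPKM in Δ*czt-1* with DMSO and 4.83 FPKM in Δ*czt-1* with staurosporine. The wild-type library was thus the higher one under staurosporine and the lower one under DMSO. The ratio of the treatments was 2.48 in the wild type and 0.578 in Δ*czt-1*. On the log2 scale the difference was 1.14 in the wild type and −0.68 in Δ*czt-1*, and they were 1.92 and −0.10 when all libraries were scaled to an equal FPKM sum. Of the 7 genes, *cch-1* is the only one whose response had opposite signs in the strains both as deposited and after that scaling. The second rests on a small value, since −0.10 is close to 0. In Δ*czt-1*, *nca-2* and *cax* lay similarly close to 0 on its other side, at 0.07 and 0.09 after that scaling.

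The *mid-1* gene encodes the regulatory subunit that acts with CCH-1. It was expressed at 14.2 FPKM in the wild type with DMSO, 15.1 FPKM in the wild type with staurosporine, 22.2 FPKM in Δ*czt-1* with DMSO and 16.3 FPKM in Δ*czt-1* with staurosporine. The Δ*czt-1* library with DMSO was the highest, and the other 3 lay close together. The difference between the treatments was 0.08 in the wild type and −0.42 in Δ*czt-1*. Both are under the 2-fold rule, and their signs depend on the scaling, since the first became −0.03 when changes were centred on the median gene and the second 0.22 with equal FPKM sums.

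The proportion of the transcripts of these subunits differed between the libraries. The FPKM of *mid-1* was 3.21 times that of *cch-1* in the wild type with DMSO and 1.37 times with staurosporine, against 2.65 and 3.37 times in Δ*czt-1*. The wild-type staurosporine library had the ratio closest to equal amounts. A ratio within 1 library does not depend on how libraries are scaled to each other.

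The *fig-1* gene, for the low-affinity system, varied least among the 8. Its values were 33.1 FPKM in the wild type with DMSO, 30.2 FPKM in the wild type with staurosporine, 36.8 FPKM in Δ*czt-1* with DMSO and 28.8 FPKM in Δ*czt-1* with staurosporine. The highest library was 1.28 times the lowest. In both strains the staurosporine library was the lower one, by −0.13 in the wild type and −0.34 in Δ*czt-1* on the log2 scale, but with equal FPKM sums it was the higher one, by 0.75 and 0.31.

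Among the pumps, *nca-1* encodes the one related to the endoplasmic reticulum type. It was expressed at 49.6 FPKM in the wild type with DMSO, 128 FPKM in the wild type with staurosporine, 55.4 FPKM in Δ*czt-1* with DMSO and 63.8 FPKM in Δ*czt-1* with staurosporine. It was the most highly expressed of the 8 genes in all 4 libraries. The staurosporine library was higher in both strains, 2.57 times in the wild type and 1.15 times in Δ*czt-1*. With that, *nca-1* was the only one of the 7 with a positive difference in Δ*czt-1*, at 0.20, as deposited.

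The *nca-2* gene had the largest response of the 8 genes in the wild type, both as deposited and with equal FPKM sums. Its expression was 30.5 FPKM in the wild type with DMSO, 117 FPKM in the wild type with staurosporine, 43.3 FPKM in Δ*czt-1* with DMSO and 28.5 FPKM in Δ*czt-1* with staurosporine. The wild-type staurosporine library stood far above the other 3. The treatment ratio was 3.85 in the wild type and 0.659 in Δ*czt-1*. On the log2 scale the wild-type difference of 1.91 was at the 97.3 percentile of all 7896 genes. The Δ*czt-1* difference was −0.59 as deposited and 0.07 with equal FPKM sums, so its direction depends on the scaling.

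The other pump of the plasma membrane type, *nca-3*, was scarcely expressed. It had 0.215 FPKM in the wild type with DMSO, 0.406 FPKM in the wild type with staurosporine, 0.350 FPKM in Δ*czt-1* with DMSO and 0.900 FPKM in Δ*czt-1* with staurosporine. All 4 values lay between the 16.7 and 21.3 percentile of the rows of their library. At these levels and an unknown depth, no order of the 4 libraries is read from them.

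The *pmr-1* gene, for the Golgi pump, was expressed at 20.8 FPKM in the wild type with DMSO, 45.2 FPKM in the wild type with staurosporine, 27.0 FPKM in Δ*czt-1* with DMSO and 26.3 FPKM in Δ*czt-1* with staurosporine. Again the wild-type staurosporine library was the highest, while the libraries of Δ*czt-1* were nearly equal. The difference between the treatments was 1.08 in the wild type, just past the 2-fold rule, and −0.04 in Δ*czt-1*. The first was 0.97, under the rule, when changes were centred on the median gene, and the second was 0.61 with equal FPKM sums, a turn of its direction.

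The *cax* gene, for the vacuolar exchanger, followed *nca-2* in size of response. It had 14.1 FPKM in the wild type with DMSO, 43.2 FPKM in the wild type with staurosporine, 18.5 FPKM in Δ*czt-1* with DMSO and 12.4 FPKM in Δ*czt-1* with staurosporine. The highest library was again that of the wild type with staurosporine, and the lowest was that of Δ*czt-1* with staurosporine. The treatment ratio was 3.06 in the wild type and 0.668 in Δ*czt-1*. The differences on the log2 scale were 1.55 and −0.55, the second of which was 0.09 with equal FPKM sums, so that its direction too depends on the scaling.

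As a group, 5 of the 7 genes past the FPKM minimum were at least 2-fold higher with staurosporine in the wild type and none was 2-fold lower. Over all 7896 genes, 12.8% were 2-fold higher and 14.0% 2-fold lower. The median difference of the 7 genes was 1.14, from −0.13 for *fig-1* to 1.91 for *nca-2*, and that of all genes was 0.11. With equal FPKM sums the same count was 5 of 7, but 43.1% of all genes were then 2-fold higher and the median gene lay at 0.85. Relative to that median gene, *nca-2* was higher by 1.95, *cax* by 1.56, *nca-1* by 1.39, *pmr-1* by 1.11 and *cch-1* by 1.07.

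In Δ*czt-1*, staurosporine and DMSO differed by at least 2-fold in 0 of the 7 genes, whereas 37.7% of all genes did. The staurosporine library was the lower one for 6 of 7, against 49.9% of all genes. The median was −0.42 for the 7 genes and 0.00 for all genes. With equal FPKM sums the median of the 7 was 0.22 and that of all genes 0.60. Then *cch-1* was the only one of the 7 below 0, by a small difference (−0.10), against 29.3% of all genes. The position below the median gene was kept for *cch-1*, *nca-2*, *cax*, *mid-1* and *fig-1*, which lay at −0.70, −0.53, −0.51, −0.38 and −0.29 relative to it after this scaling.

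**Figure D2:**
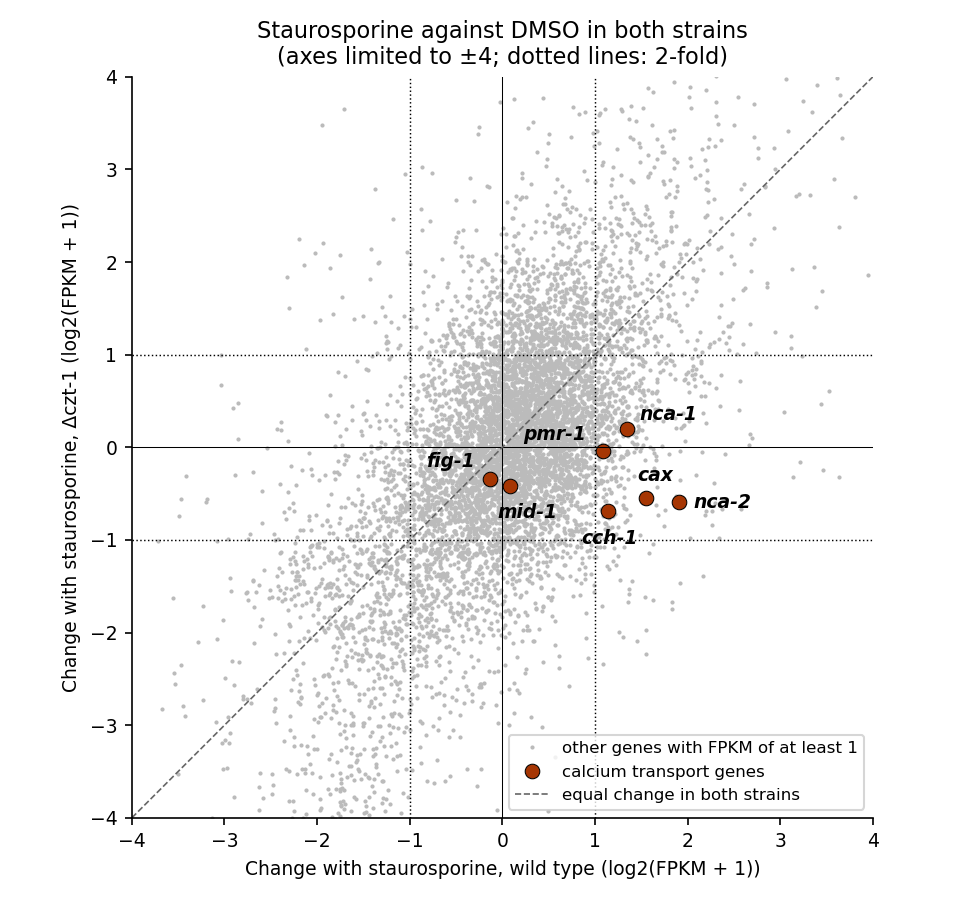
Difference between staurosporine and DMSO on the log2(FPKM + 1) scale in the wild type (horizontal axis) and in Δczt-1 (vertical axis), as deposited, for the 7 calcium transport genes with at least 1 FPKM in any library and for the other genes past that minimum, of which 111 lie outside the axes. The 5 genes (nca-2, cax, nca-1, cch-1 and pmr-1) lie right of the 2-fold line. All 7 lie below the diagonal of equal change, as do 4191 of all 7896 genes. With equal FPKM sums, the Δczt-1 values of mid-1, fig-1, nca-2, pmr-1 and cax turn positive.

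The responses of the strains were compared as the difference between them, Δ*czt-1* minus wild type. This difference was −2.49 for *nca-2*, −2.09 for *cax*, −1.82 for *cch-1*, −1.15 for *nca-1* and −1.12 for *pmr-1*, each past 2-fold. It was −0.50 for *mid-1* and −0.21 for *fig-1*, so it was below 0 for all 7, as it was for 4191 of all 7896 genes. The *pmr-1* value was −0.99, under the limit, with a pseudocount of 5. A difference of at least 2-fold in this direction was found for 17.5% of all genes, and the median of all genes was −0.07 against −1.15 for the 7 genes. With equal FPKM sums the count was 5 of 7 again, beside 23.1% of all genes. Of the 1007 genes that were 2-fold higher in the wild type, 331 (32.9%) had a response at least 2-fold smaller in Δ*czt-1*, and so did all 5 of the calcium transport genes that were 2-fold higher. Genes that meet both conditions made up 4.19% of all genes. Both conditions use the wild-type libraries, so the second is not independent of the first.

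With DMSO alone, the strains differed less than with staurosporine for 5 of the 7 genes, all but *mid-1* and *fig-1*. None of the 7 genes differed 2-fold, beside 4.94% of all genes. All 7 were somewhat higher in Δ*czt-1*, where 55.3% of all genes were. The differences were 0.79 for *cch-1*, 0.61 for *mid-1*, 0.49 for *nca-2*, 0.37 for *cax*, 0.36 for *pmr-1*, 0.16 for *nca-1* and 0.15 for *fig-1*. The *cch-1* value, a ratio of 1.89, was at the 94.7 percentile of all genes.

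With staurosporine, 3 of the 7 genes were lower by at least 2-fold in the Δ*czt-1* library and none was 2-fold higher. Over all genes, 12.2% were 2-fold lower, and with equal FPKM sums the count was again 3, beside 11.9% of all genes. The 3 genes were *nca-2* (−2.001), *cax* (−1.73) and *cch-1* (−1.04), and *nca-1* lay next to the limit at −0.99. With a pseudocount of 5 in place of 1, *cch-1* was at −0.70, which leaves 2 genes past 2-fold. The Golgi pump gene *pmr-1* differed by −0.76, *fig-1* by −0.07 and *mid-1* by 0.11. As ratios, the wild type had 4.11 times the FPKM of *nca-2*, 3.50 times that of *cax*, 2.27 times that of *cch-1*, 2.0 times that of *nca-1* and 1.72 times that of *pmr-1*. These libraries are the same ones that enter the responses above, so the comparisons between strains and between treatments are not separate evidence.

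**Figure D3:**
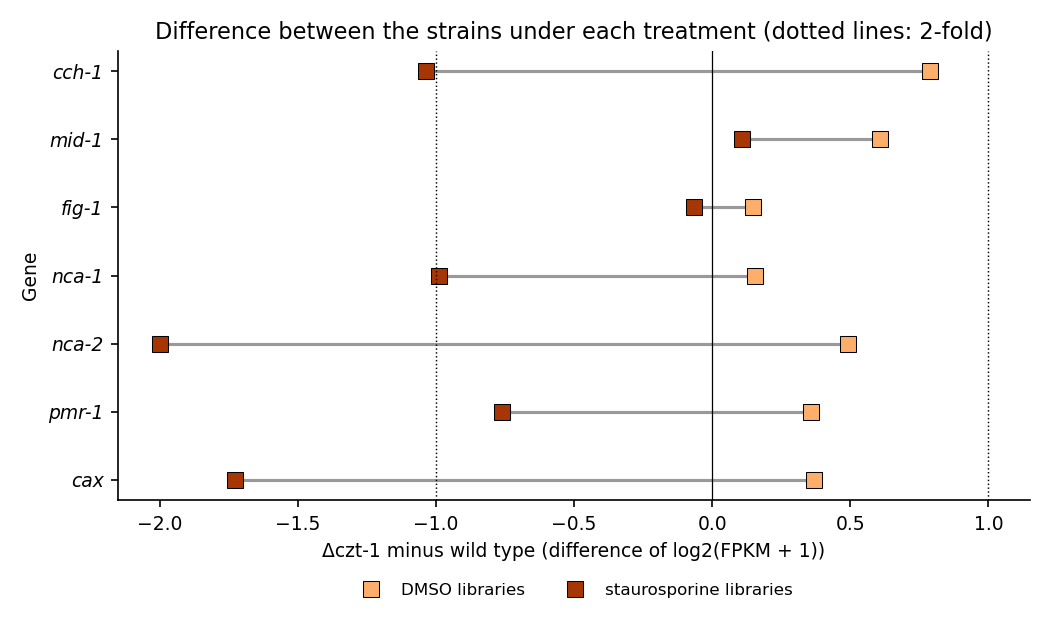
Difference in expression between the strains, Δczt-1 minus wild type, on the log2(FPKM + 1) scale as deposited, for the DMSO libraries (light squares) and the staurosporine libraries (dark squares), with a line joining the values of each gene. With DMSO the 7 genes lie between 0.15 and 0.79, and with staurosporine nca-2, cax and cch-1 lie past the 2-fold line on the negative side.

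The levels also showed which genes dominate in each library. The order within a library is not affected by scaling, and FPKM is per length, so the genes can be set side by side. The *nca-1* gene ranked first, *cch-1* seventh and *nca-3* last in every library. In the wild type with DMSO and in Δ*czt-1* with staurosporine, *fig-1* was the next after *nca-1*, at 33.1 and 28.8 FPKM, closely followed by *nca-2* at 30.5 and 28.5 FPKM. In the wild type with staurosporine, *nca-2*, *pmr-1* and *cax* all stood above *fig-1*, and *cax* was 4 in order, against 6 in the other 3 libraries. With no replicates, it cannot be said whether neighbours in this order, such as *mid-1* and *cax* in the wild type with DMSO (14.2 and 14.1 FPKM), differ beyond error.

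Among all rows of a library, *nca-2* lay at the 74.6 percentile in the wild type with DMSO and at the 91.4 percentile with staurosporine. In Δ*czt-1* it lay at the 80.4 and 74.2 percentiles. The *cax* gene lay at the 59.6 and 80.7 percentiles in the wild type and at the 63.5 and 56.5 percentiles in Δ*czt-1*. For *nca-1* the percentiles were 81.7 and 92.1 in the wild type, against 83.6 and 86.7 in Δ*czt-1*. These ranks, which do not depend on a scaling factor, placed *nca-2*, *cax* and *nca-1* higher in the wild-type staurosporine library than in the other 3.

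The summed expression of the 4 pump genes and *cax* was 115 FPKM in the wild type with DMSO, 334 FPKM in the wild type with staurosporine, 145 FPKM in Δ*czt-1* with DMSO and 132 FPKM in Δ*czt-1* with staurosporine. The sum for *cch-1*, *mid-1* and *fig-1* was 51.7, 56.2, 67.3 and 49.9 FPKM in the same order. The first sum thus exceeded the second 2.23-fold in the wild type with DMSO and 5.94-fold with staurosporine, but 2.15-fold and 2.64-fold in Δ*czt-1*. The second sum lacks *yvc-1*, which was not analysed, and *fig-1* made up 33.1 of its 51.7 FPKM in the wild type with DMSO. The share of *nca-2* in the first sum was 26.4% and 35.1% in the wild type, but 29.97% and 21.6% in Δ*czt-1*. The share of *nca-1* moved the other way, from 43.0% to 38.3% in the wild type and from 38.3% to 48.4% in Δ*czt-1*. The ratio of *nca-1* to *nca-2* was 1.63 and 1.09 in the wild type, but 1.28 and 2.24 in Δ*czt-1*.

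**Figure D4:**
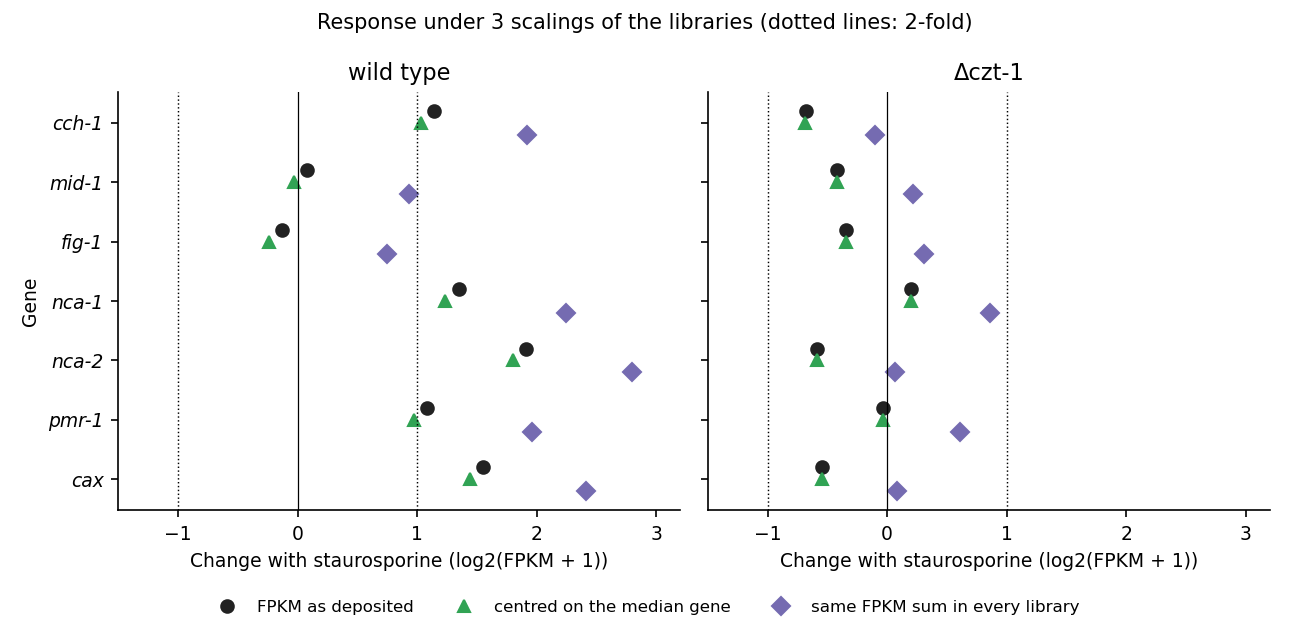
Difference between staurosporine and DMSO on the log2(FPKM + 1) scale in the wild type (left) and Δczt-1 (right) for the 7 calcium transport genes, as deposited (circles), centred on the median gene (triangles) and with all libraries scaled to equal FPKM sums (diamonds). In the wild type, cch-1, nca-1, nca-2, pmr-1 and cax lie near or past 2-fold in all 3 scalings, while in Δczt-1 the sign of mid-1, fig-1, nca-2, pmr-1 and cax turns with equal FPKM sums and no gene passes 2-fold.

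The genes whose profile over the 4 libraries was most like those of *cch-1*, *nca-2* and *cax* were sought among the rows with at least 10 FPKM in any library, by the root mean square distance of log2(FPKM + 1) profiles centred on their own means. A profile here has only 4 points, and the same 4 libraries underlie every gene. For *cch-1*, the nearest were NCU06198, described as a GDP-mannose transporter (0.06), NCU12004, described as anucleate primary sterigmata protein B (0.07), and NCU09733, which has a SUN domain (0.08). NCU06198 had 53.3 and 115 FPKM in the wild type and 86.2 and 59.2 FPKM in Δ*czt-1*, with DMSO and staurosporine respectively.

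The nearest to *nca-2* were the hypothetical proteins NCU04289 (0.09) and NCU06908 (0.10) and NCU12096, an aspartyl aminopeptidase (0.11). NCU04289 was also nearest to *cax* (0.05), followed by NCU04218, which has an RTA1 domain (0.11), and NCU04777, described as a PrnX protein (0.12). NCU04289 had 66.3 and 211 FPKM in the wild type and 88.6 and 57.0 FPKM in Δ*czt-1*. The *cax* and *nca-2* profiles were themselves 0.13 apart, which ranked *cax* 6 of 5651 genes for *nca-2* and *nca-2* 5 of 5651 for *cax*. Nearest to *cch-1* among the calcium transport genes was *pmr-1*, at rank 140 of 5651 and a distance of 0.23.

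Other transport loci of the calcium list that accompanies the study were set beside these genes. The list holds 15 further loci, of which 14 passed the FPKM minimum. With staurosporine, 5 were 2-fold higher and 1 lower in the wild type, beside 12.8% and 14.0% of all genes. In Δ*czt-1*, 6 were higher and 1 lower, beside 18.2% and 19.6% of all genes, whereas none of the 7 genes described above was past 2-fold there. Their median was 0.59 in the wild type and 0.93 in Δ*czt-1*, against 0.11 and 0.00 for all genes. The difference of the responses was past 2-fold in the positive direction for 4 and in the negative direction for 4, beside 13.5% and 17.5% of all genes, with a median of −0.20 against −0.07.

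The listed *yvc-1* locus was not analysed here, but the row of another locus, NCU11680, is described as a potassium ion channel Yvc1. Its expression was 27.7 FPKM in the wild type with DMSO, 7.48 FPKM in the wild type with staurosporine, 5.83 FPKM in Δ*czt-1* with DMSO and 27.9 FPKM in Δ*czt-1* with staurosporine. The treatments were thus ordered oppositely in the strains, at −1.76 in the wild type and 2.08 in Δ*czt-1*, which is the reverse of *cch-1*. With equal FPKM sums the values were −0.91 and 2.71. Whether this row is the gene meant by *yvc-1* was not established.

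Of the P-type ATPase genes in the list, *ena-1* (NCU05046), described as a calcium-transporting ATPase and known as a sodium pump, had 40.0 and 173 FPKM in the wild type and 96.3 and 153 FPKM in Δ*czt-1*. The *ph7* gene (NCU08147), described as a sodium or potassium ATPase, had 7.86 and 109 FPKM in the wild type and 13.2 and 72.8 FPKM in Δ*czt-1*. For both, the staurosporine library was the higher one in both strains, by 2.08 and 0.66 for *ena-1* and by 3.63 and 2.38 for *ph7*. NCU07966, with the same description as *ena-1*, had 13.9 and 39.0 FPKM in the wild type and 21.8 and 44.5 FPKM in Δ*czt-1*. NCU03818, a phospholipid-translocating ATPase, had 10.2 and 26.0 FPKM in the wild type and 15.1 and 18.2 FPKM in Δ*czt-1*. NCU04898, described as cation-transporting ATPase 4, had a difference of responses of −1.14, between those of *nca-1* and *pmr-1*. It had 60.9 and 102 FPKM in the wild type and 66.7 and 49.8 FPKM in Δ*czt-1*. Its differences were 0.73 and −0.41, the second of which was 0.25 with equal FPKM sums.

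**Figure D5:**
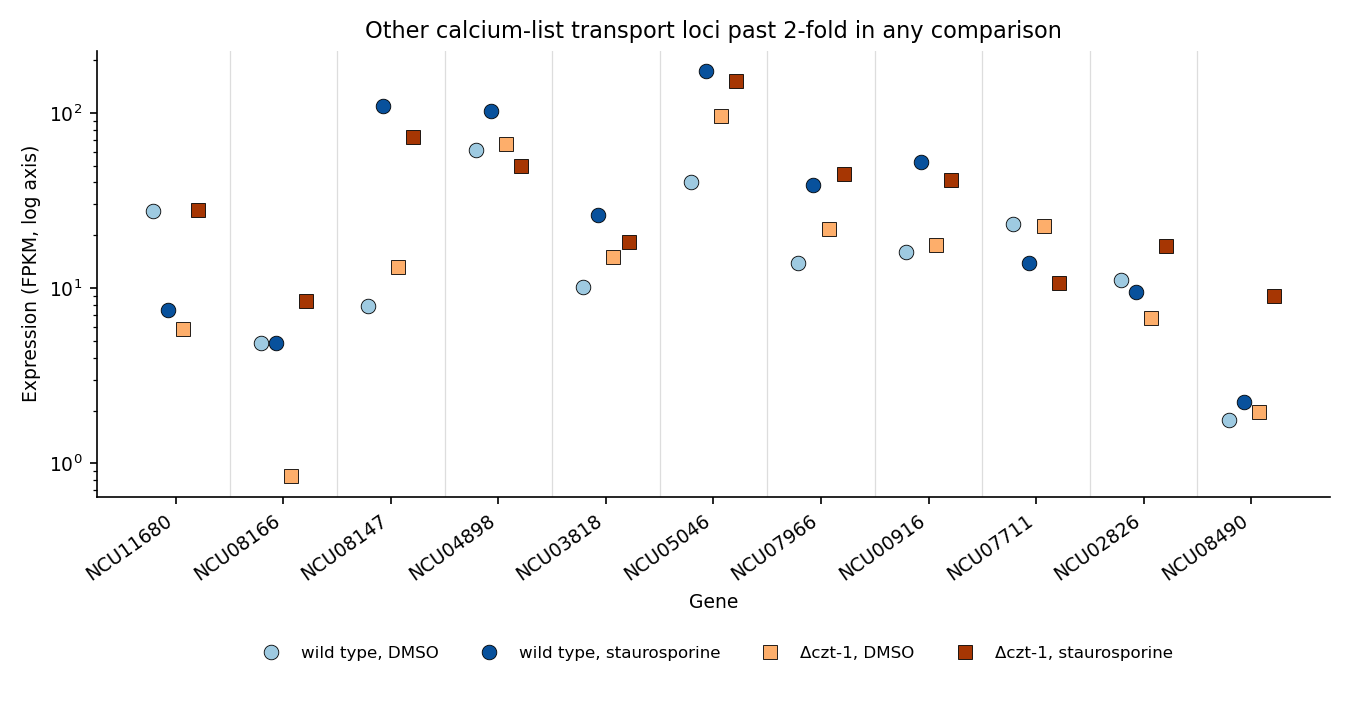
Expression of the 11 other transport loci of the calcium list that differed at least 2-fold in any comparison, in FPKM on a log axis, with 1 point for each library (circles, wild type; squares, Δczt-1; lighter, DMSO; darker, staurosporine). NCU08147, NCU05046, NCU07966 and NCU00916 are among the loci with both staurosporine libraries above both DMSO libraries, and NCU11680 is high in the wild type with DMSO and in Δczt-1 with staurosporine.

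The exchangers and other carriers of the list that were past 2-fold in any comparison did not share the pattern of *cax* over both strains. NCU07711, described as a vacuolar calcium/proton exchanger like *cax*, had 23.2 and 13.9 FPKM in the wild type and 22.5 and 10.6 FPKM in Δ*czt-1*. The differences were −0.70 and −1.01 on the log2 scale, and with equal FPKM sums the first was 0.16, on the other side of 0, and the second −0.38. The sodium/calcium exchanger NCU02826 had 11.1 and 9.46 FPKM in the wild type and 6.75 and 17.3 FPKM in Δ*czt-1*, with differences of −0.21 and 1.24, the first of which was 0.61 with equal FPKM sums. NCU00916, a membrane-bound cation transporter, was higher with staurosporine in both strains, by 1.64 and 1.18. The hypothetical proteins NCU08166 and NCU08490 differed by 0.01 and 0.23 in the wild type and by 2.37 and 1.76 in Δ*czt-1*. All 4 values of these hypothetical proteins were above 0, also with equal FPKM sums.

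The remaining 30 loci of the same list are mixed in kind, with calcium sensors, kinases, phospholipases and calcineurin beside mitochondrial NADH dehydrogenases and carriers, calreticulin and hypothetical proteins, and they were counted only, apart from calmodulin and calcineurin. In the wild type, 7 were 2-fold higher with staurosporine and 2 lower, beside 12.8% and 14.0% of all genes, with a median of 0.26 against 0.11 for all genes. In Δ*czt-1*, 4 were higher and 4 lower, beside 18.2% and 19.6% of all genes, with a median of −0.36 against 0.00. The difference of the responses, Δ*czt-1* minus wild type, was past 2-fold in the negative direction for 9 of the 30 and in the positive direction for 1. The shares of all genes were 17.5% and 13.5%, and the medians were −0.23 for the 30 loci and −0.07 for all genes. Calmodulin (NCU04120), the main cytosolic calcium sensor, had 979 and 503 FPKM in the wild type and 686 and 443 FPKM in Δ*czt-1*. Calcineurin, the phosphatase that calcium and calmodulin activate, had 120.4 and 98.5 FPKM in the wild type and 99.5 and 77.0 FPKM in Δ*czt-1* for its catalytic subunit (NCU03804). Its regulatory subunit *cnb-1* (NCU03833) had 194 and 147 FPKM in the wild type and 152 and 95.7 FPKM in Δ*czt-1*. All 3 were lower with staurosporine in both strains as deposited, from −0.96 to −0.29 on the log2 scale, but 5 of these 6 values were above 0 with equal FPKM sums, the exception being calmodulin in the wild type at −0.05. Neither scaling placed any of the 3 at 2-fold, the size that *nca-2*, *cax*, *nca-1* and *cch-1* reached in the wild type under both. The *pmr-1* gene reached it under both too, at 1.08 and 1.96, but was at 0.97 when changes were centred on the median gene.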

How the data were processed

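The 9 loci and the lists set beside them, which were taken from the calcium list of the study's supplement, were chosen with earlier results of these data known. Expression in each library was deposited by the authors as FPKM, in 3 tables of 9691 rows that each hold a pair of libraries, with a decimal comma. Per the submitters' processing notes, TopHat2 2.0.4, Cufflinks 2.0.2 and Cuffdiff were used on single reads of 50 bases from oligo(dT)-selected RNA, with a genome build not given in the sources used here. The columns shared between the tables were identical in all 9691 rows, so the 4 libraries were used on 1 scale. Columns of the authors' own comparisons (fold changes, test statistics, p-values and q-values) were not used. Of the rows, 66 join several loci. How reads of near-identical or overlapping genes were assigned, and whether strand was used, was not stated.

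Differences of log2(FPKM + 1) were computed over the 7896 rows with at least 1 FPKM in any library and counted at 2-fold. With 1 library per group no test was run. Low values fell on no common step (at most 2.45% of low genes shared 1 ratio between a pair of libraries, within 0.005 on the log2 scale), so no read number was recovered. All listed loci were to be named, with the other transport loci past 2-fold in any of 4 pairwise comparisons, calmodulin, calcineurin and the 3 most similar profiles for *cch-1*, *nca-2* and *cax*. The alternatives were pseudocounts of 0.1 and 5, no minimum, a minimum of 10 FPKM, equal FPKM sums, centring on the median gene, thresholds of 1.5-fold and 3-fold, and the addition of NCU11680. Gene symbols came from the RefSeq annotation of the NC12 assembly, in which *cch-1* carries the symbol smco-1. A planned search of promoters and comparison of proteins was not run, since no sequences were used here. The scripts (Python 3.11.15, pandas 2.3.3, NumPy 2.4.6, matplotlib 3.10.9) were tested on simulated data.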

Additional observations from a re-analysis of the deposited data

Results flagged for a closer look

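Some genes were on opposite sides of 0 in the strains, with 1 library per condition, so these differences were not tested. The response in Δ*czt-1* minus that in the wild type was −2.49 for *nca-2*, −2.09 for *cax*, −1.82 for *cch-1*, −1.12 for *pmr-1* and −0.50 for *mid-1* on the log2 scale, with the wild type above 0 and Δ*czt-1* below 0 in each. When all libraries were scaled to an equal FPKM sum, *cch-1* kept opposite signs (1.92 and −0.10), while *nca-2*, *cax*, *pmr-1* and *mid-1* were above 0 in both strains. For *pmr-1* the Δ*czt-1* value was −0.04 and for *mid-1* the wild-type value was 0.08, so their signs rest on small differences. The same holds in Δ*czt-1* with equal FPKM sums for *cch-1* (−0.10), *nca-2* (0.07) and *cax* (0.09).

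Among the other transport loci, the row described as Yvc1 (NCU11680) had a difference of 3.84, in the opposite direction, and was on opposite sides of 0 under both scalings. The difference was −1.14 for the cation-transporting ATPase NCU04898 and 1.45 for the sodium/calcium exchanger NCU02826, both of which were above 0 in both strains with equal FPKM sums.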

How the results depend on the processing

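The count of calcium transport genes past 2-fold in the wild-type response, 5, was 3 with a pseudocount of 5 and 1 (*nca-2*) at a 3-fold threshold, all higher. At these settings 17.7% and 11.3% of all 7896 genes were past the threshold in either direction, with 536 and 351 genes higher. The percentages that follow also count either direction, each with the number of genes in the direction of the calcium transport genes. In Δ*czt-1* the count of 0 was 2, both lower, at 1.5-fold (59.4% of all genes, 2348 lower) and 1, higher, with NCU11680 added. Between the strains with DMSO the count of 0 was 2, both higher, at 1.5-fold (19.6%, 929 higher) and 1, lower, with NCU11680 added. With staurosporine the count of 3 was 5, all lower, at 1.5-fold (45.1%, 1829 lower). The difference of the responses was past the threshold, in the negative direction, for 5 genes at 2-fold and for 3 at 3-fold (12.7%, 567 lower). Every other alternative kept these counts within 1.5 times. No value past 2-fold changed its direction. Equal FPKM sums turned the sign of 6 of 40 single values and centring that of 1, all of them under 2-fold. A pseudocount of 5 took *cch-1* (0.76) and *pmr-1* (0.96) below 2-fold in the wild type, *cch-1* (−0.70) in the strain comparison with staurosporine and *pmr-1* (−0.99) in the difference of the responses.

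Over all genes, 1007 were higher and 1108 lower in the wild type as deposited (47.6% higher), 3403 and 353 with equal FPKM sums (90.6%), and 826 and 1243 after centring (39.9%). In Δ*czt-1* the split was 1435 and 1545 as deposited and 2766 and 846 with equal FPKM sums. With a single library per condition and an unknown depth, none of the differences has an error. No paired analysis was possible because each group has 1 library and no result comes from a test, and no library was left out for the same reason.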
